A study of Mus musculus with 18 samples.

Results

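Methylation-sensitive germline genes were followed in mouse embryonic stem cells (ESCs) with and without microRNAs. The set holds 9 named genes, Rhox5, Dazl, Mael, Tex19.1, Ddx4, Sycp3, Dppa3, Tdrd12 and Asz1. They are 9 of the 51467 genes in the count table and were found by their Ensembl identifiers. The set was in part chosen by the Rhox5 read counts of knockout against wild type libraries, which were strongly lower in the knockout, so the difference in Rhox5 between genotypes is given below as a description with no test. Of the 9 genes, 7 passed the filter of at least 3 CPM, reads scaled to a common library size, in 3 or more libraries. Mael, with 103 reads in all 18 libraries together, and Asz1, with 7 reads, did not.

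The libraries come from polysome gradients of the wild type (WT) line, V6.5, and of a Dgcr8 knockout (KO) line, so that each genotype is represented by a single line. DGCR8 is needed to process primary microRNA transcripts, and cells without it lack canonical microRNAs. Both lines were grown with LIF, the 2i inhibitors PD0325901 and CHIR99021 and 15% serum. Both were held in 100 ug/ml cycloheximide for 2 minutes to keep ribosomes on messages before lysis. For each genotype, 3 gradients gave a monosome, a low polysome (2 to 4 ribosomes) and a high polysome fraction, which makes 6 groups of 3 libraries of 3′ end reads. The labels do not say that the gradients came from separate cultures, so p-values measure the spread between these gradients. Library totals were 1151649 to 4984833 reads, and 12851 genes were tested.

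Germline genes of this kind often carry CpG-rich promoters that are methylated and silent in most somatic cells, and they come on when methylation is lost, as in primordial germ cells. ESCs in 2i medium have little DNA methylation and express some of them. Beside methylation, a repressor complex that holds E2F6, PCGF6, MGA and MAX keeps many of them low in ESCs, and E-box and E2F letters in a promoter are the DNA sequences these factors are known to bind. Rhox5 is an X-linked homeobox gene that has long been used as a readout of DNA methylation. No methylation was measured in these libraries.

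The promoters show how the genes differ in the sequence on which methylation acts. RefSeq (GRCm38.p6) gave a window from 250 bases before to 50 bases after the start for 8 of the 9 genes, Dppa3 being without an entry. Among 32841 such windows the median CpG count was 7, with quartiles of 3 and 20. Ddx4 held 38 CpG dinucleotides, Dazl 28, Mael 24, Asz1 17, Tex19.1 16, Sycp3 15, and Tdrd12 11 in one window and 9 in another that overlaps it. Rhox5 held 5, the lowest of the 8 genes and below the median of all windows. The RefSeq start of Rhox5 lies 50234 bases upstream of the gene start in GENCODE M21, so its window describes the distal start and not the one next to the counted gene model. The 150 bases before the start are shown for 4 genes, 5′ to 3′ on the strand of the gene, with each CpG in capitals.
Rhox5 (chrX:37754458-37754607, plus strand): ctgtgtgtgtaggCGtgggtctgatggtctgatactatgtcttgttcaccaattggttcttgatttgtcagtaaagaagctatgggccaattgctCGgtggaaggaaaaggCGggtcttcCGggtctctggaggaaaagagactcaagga
Dazl (chr17:50293621-50293770, minus strand): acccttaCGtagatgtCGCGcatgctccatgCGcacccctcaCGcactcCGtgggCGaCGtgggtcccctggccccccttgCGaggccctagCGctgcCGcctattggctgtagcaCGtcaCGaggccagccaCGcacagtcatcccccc
Tex19.1 (chr11:121145993-121146142, plus strand): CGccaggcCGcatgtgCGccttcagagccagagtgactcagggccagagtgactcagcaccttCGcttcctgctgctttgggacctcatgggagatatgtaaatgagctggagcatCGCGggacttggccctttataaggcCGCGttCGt
Tdrd12 (chr7:35537716-35537865, minus strand): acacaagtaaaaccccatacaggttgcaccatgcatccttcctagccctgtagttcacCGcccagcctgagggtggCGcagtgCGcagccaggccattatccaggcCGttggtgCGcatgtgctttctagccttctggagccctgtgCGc
In these stretches Dazl had 14 CpG dinucleotides, Tex19.1 had 9, Tdrd12 had 6 and Rhox5 had 4.

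**Figure D1:**
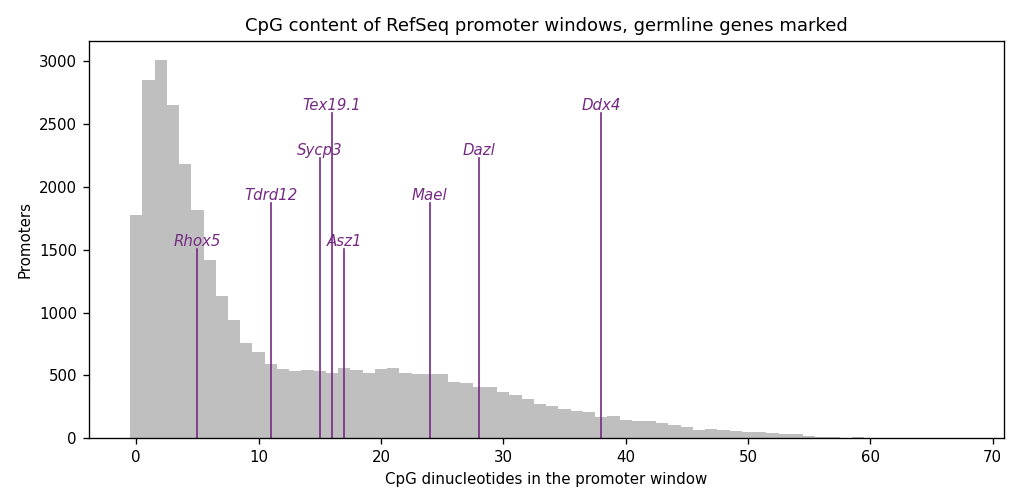
Number of CpG dinucleotides (x axis) in 32841 RefSeq promoter windows of 300 bases (y axis, number of windows), with 8 germline genes marked by vertical lines of arbitrary height, the first window being used for Tdrd12. Rhox5, with 5, sits in the low peak of the distribution, and Ddx4, with 38, lies farthest to the right.

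The letters CACGTG (E-box) and TCCCGC (E2F) were then searched in the windows on both strands. The E-box letters stood in the windows of 3 of the 8 genes, Mael, Ddx4 and Sycp3, against 7.15% of all windows. The E2F letters stood in those of 4 genes, Mael, Tex19.1, Ddx4 and Sycp3, against 19.98%. Both stood in 3 of the 8 genes, against 1.99% of all windows. The 2 motifs do not overlap each other in any of these windows. Sycp3 held the E-box letters at 2 places, 64 and 43 bases before its start. These windows of 30 bases, on the strand of the gene, have the E-box letters in capitals.
Sycp3, first place (chr10:88459511-88459540, plus strand): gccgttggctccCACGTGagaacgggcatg
Sycp3, second place (chr10:88459532-88459561, plus strand): acgggcatggagCACGTGctaggaggcggg
Ddx4 (chr13:112652322-112652351, minus strand): ggcgtccgcccgCACGTGcagccgtttaag
Mael (chr1:166238950-166238979, minus strand): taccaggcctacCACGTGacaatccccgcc
The next window has in capitals the E2F letters, read on the opposite strand, of the 1 gene with E2F and no E-box letters.
Tex19.1 (chr11:121146098-121146127, plus strand): agctggagcatcGCGGGActtggcccttta
A match is a description of the sequence. It does not show that a factor binds there. Both motifs contain a CpG, and the windows of the 4 genes with a match held 15 to 38 CpG dinucleotides. The median of all windows was 7. Shares among windows of similar CpG count were not computed, so an excess of the motifs cannot be read from these shares.

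To see whether the genes hold a site for the microRNAs that KO cells lack, their 3′ UTRs were searched for GCACTT. These letters pair with the seed AAGUGC, shared by a family that makes up a predominant fraction of ESC microRNAs. Members of this family, with bases 2 to 8 in capitals, include the following (RefSeq), and the level of each was not measured here.
mmu-miR-294-3p: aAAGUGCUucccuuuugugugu
mmu-miR-302b-3p: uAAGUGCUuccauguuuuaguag
The letters were absent from the annotated 3′ UTR of all 7 genes whose reference transcript in GENCODE M21 has one, and were present in 30.3% of the 11620 tested genes with a 3′ UTR. The transcripts used for Rhox5 and Tdrd12 have no annotated 3′ UTR. Those of Mael, Dppa3, Sycp3, Asz1, Tex19.1 and Ddx4 had 3′ UTRs of 163 to 612 bases, and that of Dazl had 1852. A longer 3′ UTR has more places for a match. Shares among 3′ UTRs of similar length were not computed, so a lack of sites cannot be read from this share.

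Several checks stand beside the results that follow. Reads of Dgcr8 numbered 38 to 183 per KO library. The log2 difference, KO against WT, was -0.56 in monosomes (limma, adjusted p = 0.0185), -0.45 in low polysomes (adjusted p = 0.0223) and -1.01 in high polysomes (adjusted p = 0.000276). Where the deletion lies is not given in the sources used here, and 3′ end reads outside it check nothing. Of 8 ESC markers, all tested, only Pou5f1 in high polysomes was called, lower in KO with a log2 change of -1.42, and their summed level was 2398 to 3792 CPM in WT and 2388 to 3194 CPM in KO libraries. Of 6 markers of 2-cell-like cells, the tested Zscan4c and Tcstv1 were higher in KO in every fraction, the summed level of the list was 0.318 to 2.65 CPM in WT and 6.15 to 15.3 CPM in KO, and Zscan4f was at 0 throughout. No WT library thus reached the 3 CPM of the filter, so Zscan4c and Tcstv1 were tested through KO libraries alone. Their direction follows in part from that filter. Of 5 epiblast-like markers, Pou3f1 was lower in every fraction, Sox3 was higher in low polysomes and Otx2, also tested, was not called, with a summed level of 46.9 to 87.9 CPM in WT and 37.4 to 80.3 CPM in KO. Of 6 primitive endoderm markers, 2 were tested, of which Dab2 was lower in both polysome fractions and Pdgfra was higher in high polysomes, with a summed level of 3.31 to 10.8 CPM in WT and 1.94 to 8.91 CPM in KO. Dab2 had at most 1.84 CPM in any KO library, so it passed the filter through WT libraries alone. Of 7 feeder fibroblast markers, 2 were tested and Col1a1 was lower in every fraction. The list's summed level was 7.01 to 12.7 CPM in WT and 2.33 to 22.1 CPM in KO. Col1a1 had 1 read in each KO monosome library and 2 to 6 in each KO high polysome library. Its WT low polysome libraries had at least 3.17 CPM and alone met the filter, so its direction follows in part from that filter. In low polysomes the untested Col3a1 and Col1a2 went the other way. They reached 28 and 13 reads in a KO library, with 0 in another, against at most 1 per WT library. In monosomes and high polysomes their means were lower in KO. The part of these cell types in the differences below was not tested, and in bulk samples fewer cells of a type and less RNA per cell cannot be told apart.

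The first comparison was KO against WT within each fraction. Among the 8 genes other than Rhox5, 4 were lower in KO in at least 2 of the 3 fractions (Dppa3, Tex19.1, Dazl and Sycp3), and none was called higher in any, where 19.3% of all genes tested were higher in at least 1. At an unadjusted p under 0.05, 1 gene (Ddx4, in monosomes) was higher, which edgeR called and DESeq2 did not. Limma called it too with total counts, with all genes that had a read and with the replicate number as a block. Lower calls in at least 2 fractions were made for 12.2% of all genes tested. Without KO replicate 2, Tex19.1 and Sycp3 dropped to 1 fraction each, which left 2 genes, Dppa3 and Dazl. Dppa3 was the 1 gene called lower in all 3 fractions, which held for 4.44% of all genes. That number was 2 with scaling by total counts, when Tex19.1 was called as well, and 2 without WT replicate 1, WT replicate 2 or KO replicate 1 (Sycp3 as well) or KO replicate 3 (Dazl as well). Calls needed both an absolute log2 change over 1 and a limma-voom adjusted p below 0.05.

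**Figure D2:**
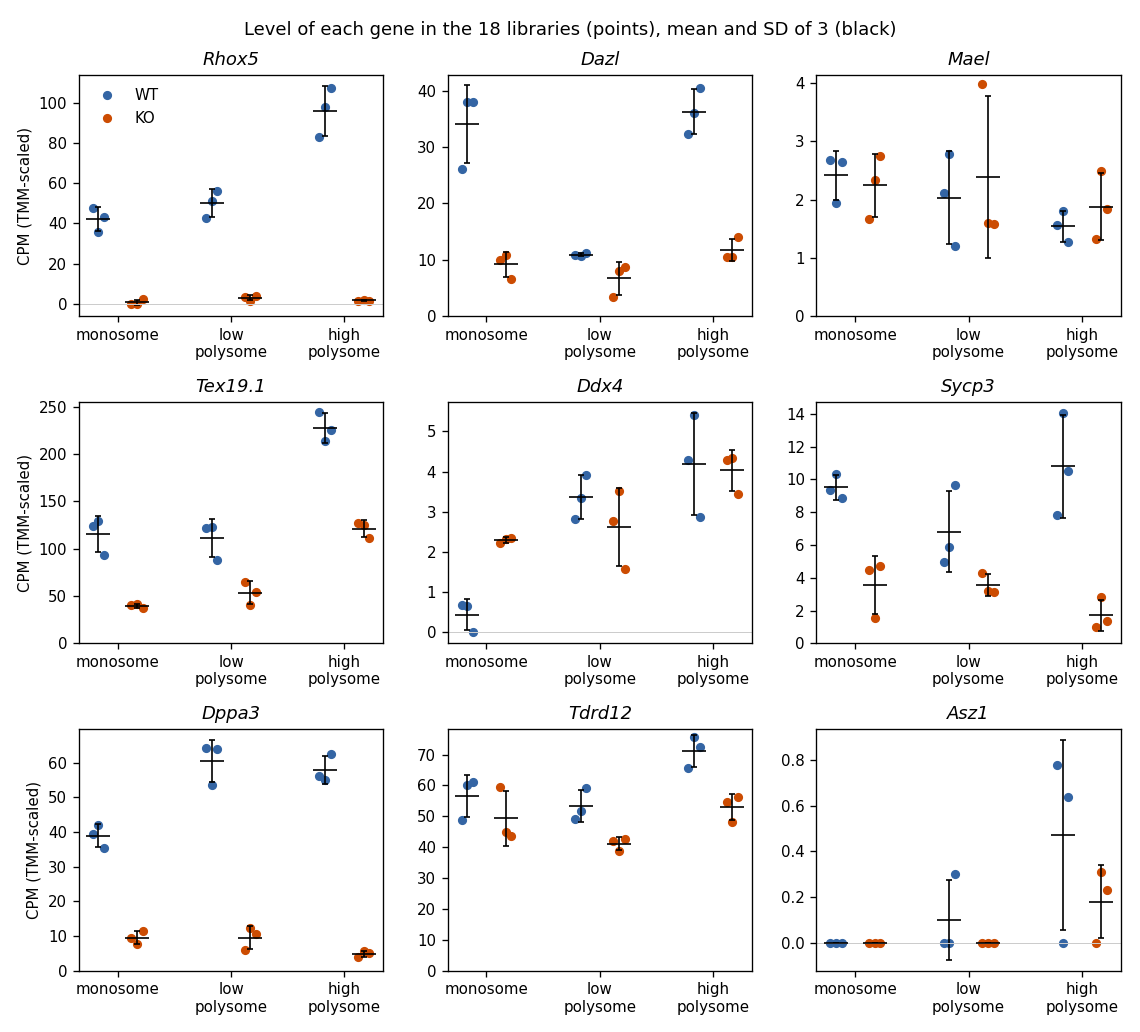
Level of each of the 9 genes (y axis, CPM scaled with TMM factors) in the 3 fractions (x axis) of WT (blue) and KO (orange) ESCs. Points are the 18 libraries and black bars the mean and SD of 3. KO points lie below WT points in every fraction for Dazl, Tex19.1, Sycp3 and Dppa3, as they do for 12.2% of all genes tested. They also do for Rhox5, which was in part chosen by this difference and is not compared with that share.

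Rhox5 (ENSMUSG00000095180, chromosome X, 37804842 to 37808876, plus strand) gave the lowest KO levels relative to WT of the tested genes. In WT monosomes its level was 47.5, 35.5 and 43.3 CPM in gradients 1 to 3. In WT low polysomes it was 42.7, 51.1 and 56.3 CPM, and in WT high polysomes 82.7, 97.7 and 107.3 CPM. In KO gradients it was 0, 0 and 2.35 CPM in monosomes, 3.69, 1.60 and 3.94 CPM in low polysomes and 1.61 to 2.17 CPM in high polysomes. All 9 KO libraries were thus below all 9 WT libraries. Reads were few in KO, with 6 in the 3 monosome libraries together, 32 in low polysomes and 19 in high polysomes, against 175, 491 and 820 in WT. A count of 0 allows up to 3 reads, which are worth 1.67 and 1.16 CPM in the 2 KO monosome libraries without a read. The KO level was 0.0207 of the WT level in monosomes (95% counting interval 0.00748 to 0.0459), 0.0624 in low polysomes (0.0422 to 0.0892) and 0.0185 in high polysomes (0.0111 to 0.0291). These intervals cover counting error only, since PCR copies were counted as reads. Rhox5 passed the filter through its WT libraries, of which 9 reached 3 CPM, against 2 KO libraries.

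Dppa3 (ENSMUSG00000046323, chromosome 6, 122626410 to 122630272, plus strand) encodes a maternal factor, also called STELLA, that guards the early embryo's genome against loss of methylation and marks primordial germ cells. Its level was 39.5, 41.9 and 35.4 CPM in WT monosomes and 9.45, 7.77 and 11.4 CPM in KO monosomes. It was 64.2, 53.6 and 63.8 CPM in WT low polysomes and 5.84, 12.2 and 10.5 CPM in KO low polysomes. It was 56.2, 55.1 and 62.4 CPM in WT high polysomes and 3.97, 5.59 and 5.06 CPM in KO high polysomes. Every KO library was below every WT library, and the gap was widest in high polysomes. The fitted log2 change was -2.04 in monosomes (SE 0.26, adjusted p = 4.56e-08), -2.70 in low polysomes (SE 0.21, adjusted p = 4.51e-14) and -3.54 in high polysomes (SE 0.26, adjusted p = 1.03e-14).

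Tex19.1 (ENSMUSG00000039329, chromosome 11, 121146143 to 121148319, plus strand) acts in germ cells and placenta, where it restrains retrotransposons, and is active in undermethylated ESCs. Its level was 123.9, 129.1 and 93.7 CPM in WT monosomes against 40.6, 41.2 and 36.8 CPM in KO. In low polysomes it was 122.3, 123.03 and 88.5 CPM in WT against 64.9, 40.7 and 54.1 CPM in KO. In high polysomes it was 244.6, 213.4 and 225.2 CPM in WT against 127.0, 125.2 and 110.8 CPM in KO. The genotypes did not overlap in any fraction. The log2 change was -1.55 in monosomes (SE 0.18, adjusted p = 3.69e-09) and -1.07 in low polysomes (SE 0.15, adjusted p = 1.2e-07). In high polysomes it was -0.91 (SE 0.14, adjusted p = 2.46e-07), short of the fold threshold, and with total counts it was -1.139 (adjusted p = 1.29e-09) and called. Without KO replicate 2 the low polysome value was -0.908, which is under that threshold too.

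Dazl (ENSMUSG00000010592, chromosome 17, 50279395 to 50293636, minus strand) encodes an RNA-binding protein that controls translation in germ cells. In monosomes its level was 26.1, 38.1 and 38.0 CPM in WT against 10.0, 10.9 and 6.66 CPM in KO. In high polysomes it was 32.4, 36.04 and 40.4 CPM in WT against 10.6, 10.6 and 14.02 CPM in KO. In low polysomes it was 10.9, 10.6 and 11.1 CPM in WT, below the other WT fractions, and 3.38, 8.01 and 8.67 CPM in KO, where gradient 3 was above its monosome level. Again no KO library reached a WT library of the same fraction. The log2 change was -1.89 in monosomes (SE 0.29, adjusted p = 1.28e-06) and -1.61 in high polysomes (SE 0.21, adjusted p = 2.5e-08). In low polysomes it was -0.78 (SE 0.30, adjusted p = 0.0257), which is not a call, and without KO replicate 3 it was -1.045 and called.

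Sycp3 (ENSMUSG00000020059, chromosome 10, 88459569 to 88473236, plus strand) encodes a component of the axis of meiotic chromosomes. It was the least abundant of the genes called, with 3 to 39 reads per library. Its level was 9.38, 10.3 and 8.84 CPM in WT monosomes against 4.45, 1.55 and 4.70 CPM in KO. In low polysomes it was 4.94, 5.86 and 9.63 CPM in WT against 4.30, 3.20 and 3.15 CPM in KO, and the lowest WT library stood just above the highest KO library. In high polysomes it was 7.80, 14.1 and 10.5 CPM in WT against 0.992, 2.80 and 1.38 CPM in KO, a wide gap. The log2 change was -1.58 in monosomes (SE 0.46, adjusted p = 0.00595) and -2.65 in high polysomes (SE 0.45, adjusted p = 2.9e-06). It was -0.89 in low polysomes (SE 0.37, adjusted p = 0.0428), short of the fold threshold, and it was called without WT replicate 1 (-1.066), WT replicate 2 (-1.022) or KO replicate 1 (-1.024). Without KO replicate 2 the monosome change was -0.969 (adjusted p = 0.101) and no longer a call.

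Tdrd12 (ENSMUSG00000030491, chromosome 7, 35469098 to 35537745, minus strand) encodes a tudor domain protein of the piRNA pathway, which silences transposons in the male germline. Its level was 48.9, 60.02 and 61.003 CPM in WT monosomes against 59.5, 45.0 and 43.5 CPM in KO, and these overlapped. In low polysomes it was 49.0 to 59.0 CPM in WT and 38.8 to 42.6 CPM in KO, and in high polysomes 65.5 to 75.7 and 48.2 to 56.3 CPM, without overlap. The log2 change was -0.22 in monosomes (95% interval -0.56 to 0.11), -0.37 in low polysomes (-0.66 to -0.08) and -0.42 in high polysomes (-0.70 to -0.15). None of these passed the fold threshold, although the adjusted p was 0.0296 in low and 0.00705 in high polysomes.

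Ddx4 (ENSMUSG00000021758, chromosome 13, 112598333 to 112652475, minus strand), the germ cell RNA helicase also called VASA, was near the limit of detection, with 0 to 15 reads per library. In monosomes it had 0.670, 0.645 and 0 CPM in WT and 2.22, 2.33 and 2.35 CPM in KO. These groups did not overlap, but they rest on 2 WT reads and 16 KO reads, a ratio of 4.82 with a counting interval of 1.13 to 43.2. The difference was not a call (limma, adjusted p = 0.0567), while edgeR's quasi-likelihood test gave an adjusted p of 0.0445. In limma it was called with total counts (1.848, adjusted p = 0.0450) and with all genes that had a read (1.896, adjusted p = 0.0106). In low polysomes Ddx4 had 2.82 to 3.91 CPM in WT and 1.58 to 3.52 CPM in KO, and in high polysomes 2.87 to 5.41 and 3.45 to 4.35 CPM, which overlapped in both. The log2 change was -0.45 in low polysomes (95% interval -1.29 to 0.40) and -0.03 in high polysomes (-0.77 to 0.71).

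Mael (ENSMUSG00000040629, chromosome 1, 166201201 to 166238747, minus strand) and Asz1 (ENSMUSG00000010796, chromosome 6, 18050964 to 18109061, minus strand) encode piRNA pathway proteins of the nuage, the germ cell granule where piRNAs are made. Mael had 3 to 13 reads per library, and its levels overlapped between genotypes in each fraction. Its pooled KO to WT ratio was 0.964 in monosomes (counting interval 0.411 to 2.38), 1.15 in low polysomes (0.608 to 2.19) and 1.23 in high polysomes (0.583 to 2.69). Asz1 had no reads in 13 of the 18 libraries and at most 2 in any. A difference in Asz1 was not detectable at this depth.

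By fraction, 4 of these 8 genes were called lower in monosomes (Dppa3, Sycp3, Tex19.1 and Dazl), against 9.63% of all genes. In low polysomes 2 were called lower (Dppa3 and Tex19.1), against 13.6%, and in high polysomes 3 were called lower (Dppa3, Sycp3 and Dazl), against 17.9%. Non-overlapping levels, with each KO library below each WT library, were found for 4 of the 8 in monosomes and for 5 in each polysome fraction, while 25.7%, 28.4% and 33.7% of all genes tested had them. The 6 that were tested had a median log2 change of -1.56 in monosomes, where that of all genes tested was -0.05. The medians were -0.84 against 0.00 for low polysomes and -1.26 against -0.08 for high polysomes. The balance of all calls in high polysomes depends on the scaling. With TMM factors 1946 genes were higher and 2303 lower, and with total counts 1426 were higher and 3114 lower, the median of all genes being -0.31. The members called in each fraction were lower under both scalings.

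**Figure D3:**
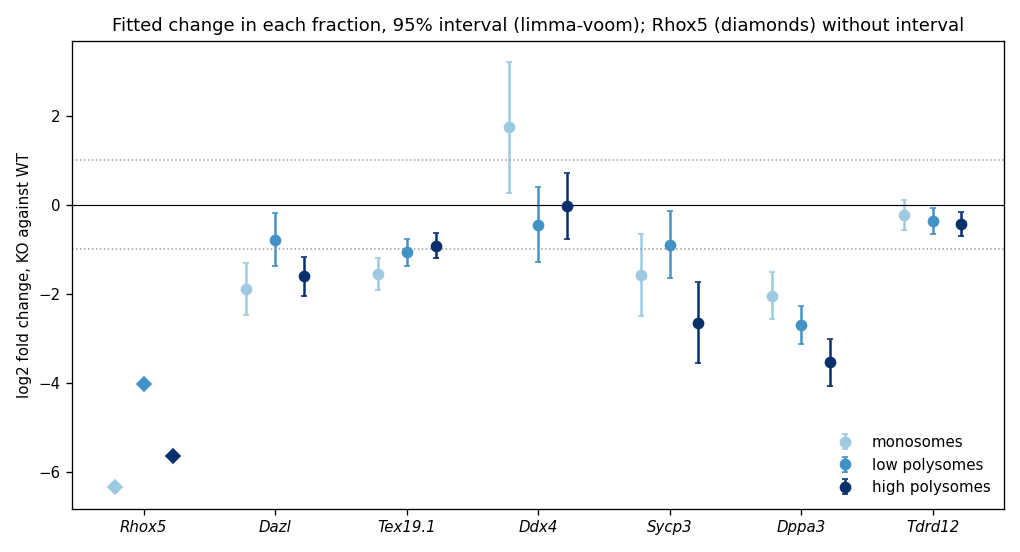
Log2 fold change of KO against WT (y axis) for the 7 tested genes (x axis) in monosomes, low polysomes and high polysomes (light to dark blue), with 95% intervals from limma-voom and dotted lines at the fold threshold. Rhox5 is drawn as diamonds without intervals, Dppa3 lies below the lower line in all 3 fractions, and Ddx4 and Tdrd12 are not called in any.

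The second comparison was the translation level, the ratio of high polysomes to monosomes. It is another contrast than the one by which Rhox5 was chosen, although its WT libraries are the same, and Rhox5 passed the filter through them. In WT cells Rhox5 and Ddx4 were called as higher in high polysomes than in monosomes, 2 of the 9 genes, against 10.7% of all genes called in that direction. Rhox5 had log2 ratios of 0.79, 1.44 and 1.29 in the 3 WT gradients, all above 0, and a fitted value of 1.19 (SE 0.18, adjusted p = 7.09e-07). Ddx4 had 1.85, 2.17 and 2.32, but its ratio rests on 2 monosome reads against 35 high polysome reads, 8.62-fold with a counting interval of 2.21 to 73.9. The mean of these ratios moved from 2.11 to 3.08 when the prior count was 0.5 in place of 2. The fitted value was 2.47 (SE 0.68, adjusted p = 0.0024). Tex19.1 had a fitted WT translation level of 0.97 (SE 0.15, adjusted p = 6.16e-07) and Dppa3 one of 0.56 (SE 0.18, adjusted p = 0.00835), both short of the fold threshold. Dazl (0.12), Sycp3 (0.11) and Tdrd12 (0.34) did not pass the test.

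**Figure D4:**
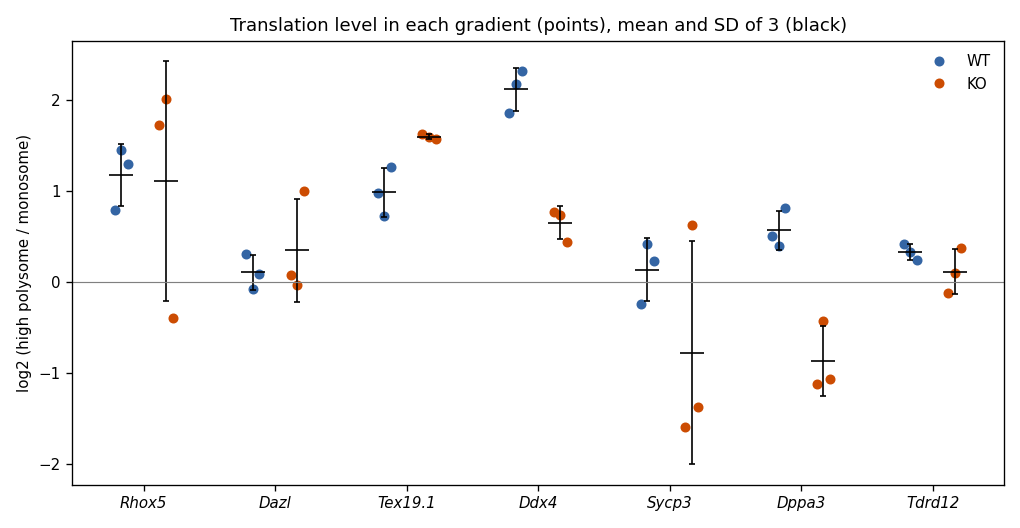
Log2 ratio of high polysome to monosome CPM (prior count 2) on the y axis for the 7 tested genes on the x axis, in the 3 WT (blue) and 3 KO (orange) gradients, with the mean and SD in black. Dppa3 is the gene for which KO gradients lie below and WT gradients above 0, and the Rhox5 ratios in KO rest on 0 to 6 monosome reads per library.

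Dppa3 was the 1 gene of the 8 whose translation level changed, against 8.81% of all genes called lower. With total counts its change was -1.83 (adjusted p = 0.000148), and the share of all genes called lower was 16.1%. Its log2 ratio was 0.50, 0.39 and 0.81 in WT gradients and -1.12, -0.43 and -1.06 in KO gradients, so that the ratio was above 0 in every WT gradient and below 0 in every KO gradient. The change was -1.499 (SE 0.37, adjusted p = 0.00193). Its coding sequence is short, with 450 bases, and the tenth of tested genes with the shortest coding sequences (75 to 522 bases) had a median change of -0.94 and quartiles of -1.40 and -0.48. The fitted value of Dppa3 was just below the lower quartile of genes of its length. Its confidence interval of -2.25 to -0.75 held both that quartile and the median. Leaving out 1 gradient gave changes of -1.781 to -1.377. No test of Dppa3 against genes of its length was made, and the part of coding length in its change was not tested.

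Tex19.1 moved the other way without being called. Its log2 ratio was 0.98, 0.72 and 1.26 in WT and 1.63, 1.59 and 1.57 in KO gradients, which do not overlap. The change was 0.63 (SE 0.22, adjusted p = 0.0292), short of the fold threshold, and 0.306 (adjusted p = 0.316) with total counts. Genes with coding sequences of 948 to 1140 bases, the class of Tex19.1 with 1053, had a median change of -0.15 and an upper quartile of 0.31. In KO cells alone, its translation level was 1.61 (SE 0.17, adjusted p = 4.94e-11), the 1 call among the 8 genes, against 17.5% of all genes called higher.

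Sycp3 had log2 ratios of -0.24, 0.42 and 0.23 in WT and -1.59, 0.63 and -1.37 in KO gradients, which overlap, and its change of -1.07 (SE 0.64, adjusted p = 0.222) was not called. Without KO replicate 2 it was -1.996 (adjusted p = 0.0334). Ddx4 changed by -1.77 (SE 0.82, adjusted p = 0.102), with the same 2 WT monosome reads behind it. Dazl (0.28, adjusted p = 0.608) and Tdrd12 (-0.20, adjusted p = 0.528) gave intervals of -0.44 to 1.001 and -0.64 to 0.23. Rhox5 had too few KO reads for a change to be read.

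Between neighbouring fractions, Sycp3 was the 1 gene called for its high to low polysome ratio, which was lower in KO by a log2 change of -1.76 (SE 0.58, adjusted p = 0.0304), against 2.89% of all genes called lower. With total counts it was -1.962, and 6.57% of all genes were called lower. Its log2 ratio ranged from 0.12 to 1.17 in WT and from -1.55 to -0.16 in KO gradients. The call was lost without WT replicate 2 (-1.407, adjusted p = 0.150), without KO replicate 1 (-1.391) and without KO replicate 3, and with all genes that had a read (-1.763, adjusted p = 0.0640). For the low polysome to monosome ratio limma called none of the 8 genes, 3 having an unadjusted p under 0.05, against 5.03% of all genes called in either direction. Dazl came closest, and its log2 ratio was -1.56 ± 0.31 in WT and -0.48 ± 0.87 in KO gradients (mean ± SD, n = 3). Its change was 1.11 (SE 0.41, adjusted p = 0.0775), 1.20 in edgeR (adjusted p = 0.0323), 1.18 in DESeq2 (adjusted p = 0.0337) and 1.24 with the gradient as a replicate block (adjusted p = 0.0268).

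Other genes of the germline were then described from lists by function. Among 19 genes of the piRNA pathway and nuage, 11 were tested. In monosomes 2 were lower and none higher, in low polysomes 3 were lower and 1 higher, and in high polysomes 4 were lower and 1 higher. Of all genes tested, 9.63%, 13.6% and 17.9% were called lower and 8.43%, 11.4% and 15.1% higher in these fractions, which is the background for this list and for those that follow. Fkbp6, a co-chaperone needed in piRNA biogenesis, fell in every fraction, from 84.8 ± 17.4 CPM in WT to 16.4 ± 1.56 CPM in KO high polysomes (mean ± SD, n = 3). Stk31, a germ cell kinase with a tudor domain, also fell in every fraction, by a log2 change of -1.81, -2.88 and -1.82 from monosomes to high polysomes. Gtsf1, a partner of PIWI proteins, fell in both polysome fractions (-2.39 and -2.97). Its KO levels were at most 2.24 CPM in low and 1.15 CPM in high polysomes, from 2 to 7 and 1 to 5 reads per library. Gtsf1 thus passed the filter through its WT libraries, and its direction follows in part from that filter. Tdrd7, a tudor domain protein, rose in both polysome fractions (2.16 and 2.10) from 0 to 4 reads per WT library. The list's median log2 change was -0.99, -0.21 and -0.57 in the 3 fractions.

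Among 29 genes of meiosis and spermatogenesis, 17 were tested. In monosomes 7 were lower and 1 higher, in low polysomes 5 lower and 3 higher, and in high polysomes 6 lower and 2 higher, beside 9.63%, 13.6% and 17.9% of all genes lower and 8.43%, 11.4% and 15.1% higher. Hormad2, a surveillance protein of meiotic chromosome axes, fell in every fraction by log2 changes of -3.15, -3.75 and -3.11. Its KO levels were at most 3.92 CPM in monosomes, 2.36 CPM in low and 2.53 CPM in high polysomes. Its WT levels were at least 17.7, 25.7 and 14.6 CPM. Hormad2 thus passed the filter through its WT libraries, and its direction follows in part from that filter. Syce2, of the central element of the synaptonemal complex, fell in every fraction, most in low polysomes, where WT had 176 ± 7.78 and KO 25.6 ± 6.43 CPM (log2 change -2.82). Syce3, of the same structure, fell in monosomes (-2.17) and low polysomes (-3.72), and Brdt, a testis bromodomain protein, fell in monosomes (-2.15) and high polysomes (-2.04). Brdt had at most 1.55 CPM in any KO library, so it passed the filter through WT libraries alone. Its monosome reads were 3 to 5 per WT and 0 to 4 per KO library. In high polysomes they were 2 to 6 and 0 to 3. Rec8, the meiotic cohesin, rose in every fraction, from 5.75 ± 2.63 to 22.3 ± 8.66 CPM in high polysomes. The list's median log2 change was -0.71, -0.78 and -0.55.

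Of 41 other genes of the Rhox cluster, 34 had no reads and only Rhox6 and Rhox9 were tested. Rhox6 fell in low polysomes (log2 change -1.18, adjusted p = 0.000677), and its values in monosomes (-0.37) and high polysomes (-0.91) were not called. Rhox9 was not called in any fraction, with values from -0.30 to 0.40. Many genes of this cluster have near-identical copies, so that reads kept only when they align once make these counts uncertain.

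Among 13 genes of primordial germ cells, 12 were tested, with 3 higher and 1 lower in monosomes, 3 higher and none lower in low polysomes, and 1 of each in high polysomes. The shares of all genes called higher were 8.43%, 11.4% and 15.1%. Ifitm1, an interferon-induced membrane protein that marks early germ cells, rose in every fraction, from 177 ± 2.43 to 1471 ± 169 CPM in monosomes. Ifitm3, its neighbour in the same family, rose in monosomes (1.78) and low polysomes (1.46), and Nanos3, an RNA-binding protein of germ cell precursors, rose in the same fractions (2.09 and 1.23). The median log2 change of this list was above 0 in each fraction, at 0.22, 0.31 and 0.25.

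The factors known to silence germline genes were all tested. Of 16 germline gene repressors, none was called in monosomes or low polysomes by limma, edgeR or DESeq2. At an unadjusted p under 0.05, 4 were higher and 1 lower in monosomes, and 8 were higher and 2 lower in low polysomes. In high polysomes Cbx1 (-1.28) and Cbx3 (-1.22), which bind methylated histone H3, were lower and Mga (1.03) was higher, the last in limma alone. Of 10 enzymes and cofactors of DNA methylation and demethylation, none was called in monosomes by limma, edgeR or DESeq2. Tdg was lower in low polysomes (-1.64), and the oxidases Tet1 (1.11) and Tet2 (1.04) were higher in high polysomes. At an unadjusted p under 0.05, 1 was higher and 5 lower in monosomes, 3 and 4 in low polysomes, and 4 and 2 in high polysomes. Other changes had a limma adjusted p below 0.05 but fell short of the fold threshold. Hells was lower in all 3 fractions (-0.94, -0.98 and -0.76) and Uhrf1 in monosomes (-0.99) and low polysomes (-0.77). Dnmt3a was higher in low (0.80) and high polysomes (0.82), and Dnmt1 in high polysomes (0.86). The translation level of the maintenance methyltransferase Dnmt1 rose by a log2 change of 1.30 (SE 0.22, adjusted p = 1.24e-05) and that of Tet1 by 1.05 (SE 0.20, adjusted p = 0.000104), while those of Rybp (-1.53), Cbx1 (-1.46) and Cbx3 (-1.07) fell. Of the 12851 genes tested, 808 were called higher and 1132 lower for this change. Its median ran from -0.94 in the tenth with the shortest coding sequences to 0.62 in the tenth with the longest. The part of coding length in the values of these genes was not tested.

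**Figure D5:**
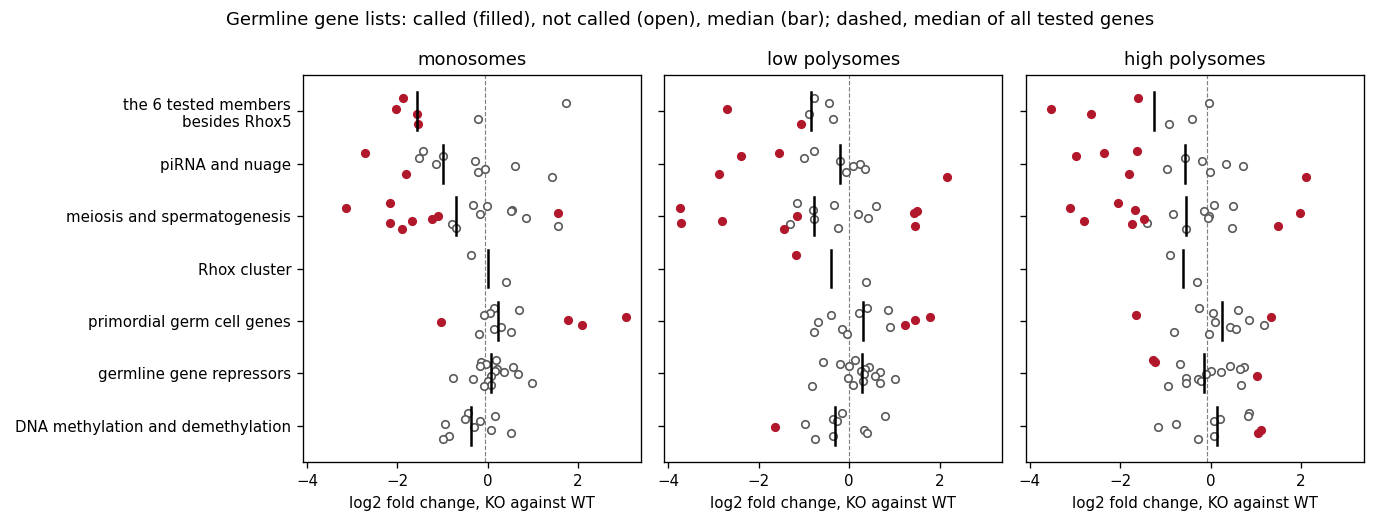
Log2 fold change of KO against WT (x axis) for the tested genes of each list (rows) in the 3 fractions (panels). Filled points are called, open points are not, black bars are medians and the dashed line is the median of all 12851 tested genes. The bar of the 6 tested germline genes other than Rhox5 stands at -1.56, -0.84 and -1.26 from monosomes to high polysomes.

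Lastly, genes whose levels run most like those of each member over the 18 libraries were listed, as a description. These libraries share genotype, fraction and gradient, so that any gene that differs by genotype can score high. For Rhox5 these were Chac1 (Pearson's r = 0.976), Mthfd2 (0.973) and Steap1 (0.965). For Dppa3 they were Fmr1nb (0.980), Ildr1 (0.967) and Rgcc (0.965), and for Tex19.1 they were Gldc (0.976), Idh1 (0.957) and Sept11 (0.953). The closest genes reached 0.917 for Dazl (Sntb2 and Fbxo5, then Lactb2 at 0.909), 0.914 for Sycp3 (Mkrn2, then Fam89b and Bex1), 0.896 for Tdrd12 (Zswim1, then Rfc4 and Nars) and 0.872 for Ddx4 (Nfkbil1, then Ankrd13a and Proser2). Among the members themselves, Rhox5 and Dppa3 were most alike (0.917), followed by Sycp3 and Dppa3 (0.859) and Rhox5 and Sycp3 (0.834), while Ddx4 gave values from -0.34 to 0.18 with the others.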

How the data were processed

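The study's authors sequenced the 3′ ends of polyadenylated RNA (QuantSeq) from 18 polysome fractions. They deposited raw counts of reads per gene: Cutadapt 1.14 removed adapters, STAR 2.5.3a placed the reads on mm10, those that aligned once were kept, and strand-specific counts over GENCODE M14 exons were made with featureCounts 1.5.3. The submitters' processing notes name no step on molecular identifiers. Counts of 3′ ends do not grow with transcript length, and near-identical copies are undercounted. The 92 spike-in entries were left out.

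Genes reaching 3 CPM in 3 or more libraries were fitted with limma-voom (limma 3.58.1, TMM factors from edgeR 4.0.16, R 4.3.3), the model holding a mean per group (6 groups). Two-sided p-values were adjusted by Benjamini-Hochberg across the 12851 genes tested, and adjusted p-values are limma's unless edgeR or DESeq2 1.42.0 is named. Calls needed an absolute log2 change over 1 and an adjusted p below 0.05. Levels are TMM-scaled CPM, and ratios per gradient are log2 CPM with a prior count of 2. The fit was tested on simulated data in which the changed genes had more reads on average than Sycp3 or Ddx4. That test therefore says nothing about calls at such low counts. Counting intervals are exact binomial (Clopper-Pearson) at 95%. Fractions with the same number and genotype come from 1 gradient, as the labels say, so the gradient was used as a block in an alternative fit of ratios of fractions, and the replicate number in that of KO against WT. The correlation of deviations between fractions of a gradient was 0.032 to 0.135 over 18 pairs, and between genotypes with the same number 0.0002 to 0.102 over 9 pairs. The labels give no batch.

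The members, the gene lists and the tests were chosen with earlier results of these data known. All 9 members are named. From each list, the genes called in 1 direction in at least 2 fractions are named, at most the 5 with the largest mean absolute log2 change, and repressors, methylation enzymes and markers named beyond that were chosen after their values were seen. For each tested member the 3 genes with the highest Pearson correlation are named. Gene models and 3′ UTRs are from GENCODE M21 (GRCm38), promoters and microRNAs from RefSeq (GRCm38.p6). Protein sequences were not used here.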

Additional observations from a re-analysis of the deposited data

Results flagged for a closer look

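The KO effect differed between fractions, by the interaction of genotype and fraction in limma, for 2 of the 8 genes other than Rhox5. For Dppa3 the KO effect in high polysomes was below that in monosomes by a log2 value of -1.499 (adjusted p = 0.00193), and all 3 KO gradients lay below all 3 WT gradients. For Sycp3 the KO effect in high polysomes was below that in low polysomes by -1.76 (adjusted p = 0.0304), again with all 3 KO gradients below all 3 WT gradients, from 3 to 9 reads per KO high polysome library. The Sycp3 call was lost without WT replicate 2, KO replicate 1 or KO replicate 3, and with all genes that had a read. Of all genes, 8.81% were called lower for the change in translation level and 2.89% for the high to low ratio. The share of all genes whose gradients separate in this way was not computed. No group held 4 or more libraries, so no single library was examined for standing apart from its group. What lies behind either difference was not tested.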

How the results depend on the processing

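Alternatives moved the calls of genes with few reads or values near the fold threshold, and for the rest the cause was not tested. With no fold threshold, 5 members were called in low and 5 in high polysomes, 2 for the change in translation level, 4 and 2 for the translation level of WT and KO, and 26, 34 and 37 list genes in monosomes, low and high polysomes, each count being larger by construction. Of all genes, 37.3%, 52.3% and 60.7% then passed in monosomes, low and high polysomes, 28.2% for the change in translation level, and 54.0% and 67.7% for the translation level of WT and KO. Lower in all 3 fractions were then 4 members, and 2 with total counts. With total counts, 2 were called for the change in translation level (Ddx4 in addition), 3 for the high to low polysome ratio and 3 for the KO translation level. Ddx4 was then also called higher in monosomes, as it was with all genes that had a read. With all genes that had a read, 2 were called for the change in translation level, 1 for the low polysome to monosome ratio and 0 for the high to low ratio, also 0 in DESeq2, where Sycp3 had no adjusted p. With 10 CPM as the filter, fewer genes were tested, and 1 was called for the WT translation level, 2 for the KO translation level, and 10 list genes in low and 10 in high polysomes. edgeR, DESeq2 and the replicate block each called 1 gene, Dazl, for the low polysome to monosome ratio. The replicate block was the gradient for these ratios. For KO against WT within a fraction it was the replicate number, and that fit also called Ddx4 in monosomes (1.718, adjusted p = 0.0394), although the numbers pair no samples there, and it changed no other call.

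Leaving out 1 gradient gave 3 to 4 called members in monosomes, 1 to 3 in low polysomes, 3 in every case in high polysomes, 1 to 2 for the change in translation level, 0 to 1 for the low polysome to monosome ratio, 0 to 2 for the high to low ratio and, for the translation level, 2 to 3 in WT and 1 to 3 in KO. Members lower in at least 2 fractions numbered 2 to 4, the 2 being without KO replicate 2, and those lower in all 3 numbered 1 to 2. The list counts ranged from 10 to 15, 15 to 18 and 15 to 22 in the 3 fractions. The counts of list genes and of members by number of fractions under these settings were added after seeing the data.

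Signs turned only for values near 0 that were not called. With total counts the change in translation level of Dazl was -0.05, that of the Tex19.1 high to low ratio -0.046, and the KO translation level of Tdrd12 -0.113. The Ddx4 change in high polysomes was 0.005 with only the libraries compared. Leaving out 1 gradient gave -0.311 to 0.192 for it (above 0 without WT replicate 1, WT replicate 2 or KO replicate 3), -0.115 to 0.483 for the Dazl change in translation level and -0.003 to 0.663 for its KO translation level (both below 0 without KO replicate 3), -0.009 to 0.286 for its WT translation level (below 0 without WT replicate 1) and -0.124 to 0.056 for the Tdrd12 high to low ratio (above 0 without WT replicate 2 or KO replicate 2). Depth limited Ddx4, Mael, Asz1 and the KO libraries of Rhox5 and Sycp3.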
